A study of Rattus norvegicus with 18 samples.

Results

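The abdominal aorta of spontaneously hypertensive rats was compared with that of normotensive rats over 3239 transcripts that were listed for these strains only. They are the transcripts whose identifier stood in all 12 tables of the strains WKY and SHR and in none of the tables of the treated group, out of 3659 listed for WKY and SHR and 4874 listed in any table of the series. The SHR (genotype SHR) group held 6 animals and the WKY (genotype WKY) group 6 animals, and both were given double distilled water by gavage for 10 weeks. The series held another group of 6 animals, SHR+ETH, of genotype SHR with ethoxysanguinarine at 3.5 mg/kg per day over the same time, of which only the identifiers are used here. Age and sex of the animals are not given in the labels. The libraries were made from total RNA after removal of ribosomal RNA, 1 per animal, and in such bulk tissue fewer cells of a type cannot be told apart from less RNA per cell.

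The SHR is an inbred strain bred for inherited high blood pressure, and WKY (Wistar Kyoto) is the related strain kept as its normotensive control. The aorta is an elastic artery whose wall is built mainly of smooth muscle cells, matrix-producing fibroblasts and a lining endothelium, and in hypertension the wall thickens and stiffens, a process called vascular remodelling. The 2 strains also differ in their inherited sequence across the genome, so that a strain comparison holds differences unrelated to pressure, and these cannot be told apart here. One gene can give several transcripts that differ in their exons, and a strain difference can thus lie in the amount of a gene's RNA or in which of its transcripts is made.

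Of the 3239 transcripts, 843 (26.0%) carried Ensembl identifiers (ENSRNOT numbers) and 2396 (74.0%) carried MERGE numbers and are called assembled transcripts here, though no source used here states their origin. The tables do not pair identifiers with genes, and the gene table used here matched 0 of the 957 Ensembl identifiers listed for the strains. Genes, pathways and markers of smooth muscle, endothelium or other cells could therefore not be read out, and the labelled tissue was not checked against its markers. Levels are given as deposited, without a unit. Most levels were low, with a median over transcripts of 1.04 for the mean of the 12 libraries: 1576 transcripts (48.7%) had a mean under 1, and 28 had a mean of at least 100, of which 22 were Ensembl transcripts. The median was 1.80 for Ensembl and 0.905 for assembled transcripts.

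The list itself was bounded by the strain difference. On log2(value + 0.01) the smallest absolute difference between the strain means of any of the 3239 transcripts was 0.76, and 81 (2.50%) lay under 1. The larger of the 2 strain means was never under 0.501. A set of transcripts listed without regard to strain would hold differences near 0, and no source used here states the criterion of the list. The values that follow are thus a description of transcripts that differ between the strains, and their p-values and counts of calls are not independent evidence that they do.

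**Figure D1:**
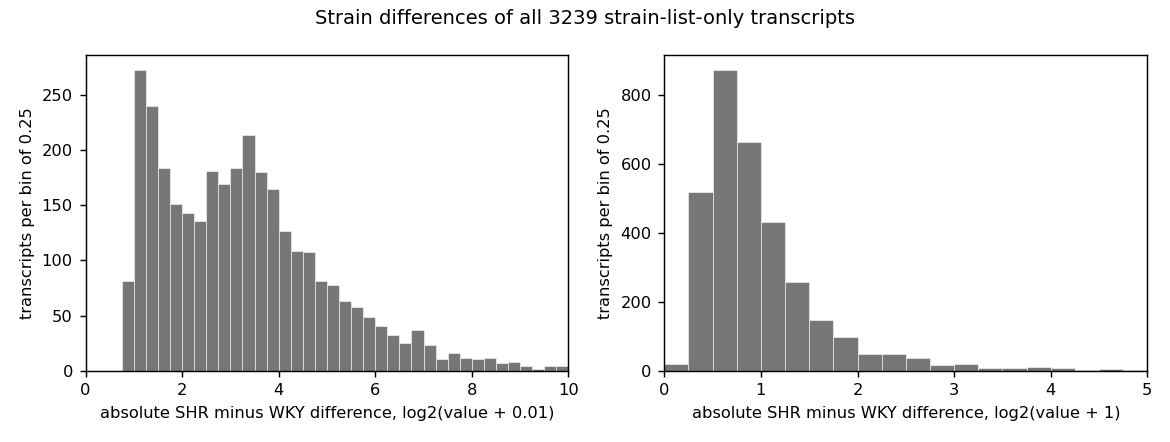
Histograms of the absolute difference between SHR and WKY means for all 3239 transcripts, on log2(value + 0.01) at left and log2(value + 1) at right, with the number of transcripts per bin of 0.25 on the y axis. No transcript lies under 0.76 at left, while at right, where low values are compressed, differences extend to near 0. The x axes end at 10 and 5, and the few larger differences are not drawn.

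Although the depth of the libraries is not recorded in the tables, a relative factor per library could be read from the values. It would equal relative depth only if the values are reads divided by depth, which is not given. For transcripts with few reads, the values of 2 libraries stood in whole-number ratios after a common factor, which was taken as what 1 read adds to a value in one library relative to the other. Relative to WKY 1, a read was worth between 0.967 (WKY 5) and 1.11 (WKY 2) in the other WKY libraries and between 0.940 (SHR 48) and 1.16 (SHR 60) in SHR. The ranges of the strains overlapped, and the highest was 1.23 times the lowest. Of 36 direct comparisons between a WKY and an SHR library, 34 gave the same factor to within 0.01 on the log2 scale and the other 2 were off by a factor of 2. Reads per transcript were not recovered, the depth behind each value is unknown, and no counting interval or floor is given. Transcripts with no value above 0 are called listed at 0.

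Fewer transcripts were listed at 0 in SHR aorta. An SHR library had 586.0 ± 48.2 (SD, n = 6) of the 3239 transcripts at 0 and a WKY library 749.3 ± 82.5, a difference larger than the spread (two-sided exact permutation p = 0.00433, adjusted 0.0216 over 5 values tested per library, smallest possible p 0.00216). The numbers ran from 524 to 664 in SHR and from 621 to 837 in WKY, so the groups overlapped in SHR 60 and WKY 6. The number of transcripts at a value of 1 or above was 1424 ± 41.1 in SHR and 1421.5 ± 71.6 in WKY (exact permutation p = 0.948, adjusted 0.948), and the difference of 2.5 was within the spread.  In all 6 WKY libraries 259 transcripts were at 0, of which 72 were above 0 in all 6 SHR libraries and 16 were at 1 or above in all 6. In all 6 SHR libraries 152 were at 0, of which 64 were above 0 and 26 at 1 or above in all 6 WKY libraries. These counts hold for a list bounded by the strain difference.

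The summed value of the 3239 transcripts was dominated by 1 of them. ENSRNOT00000040993 took from 31.8% to 56.4% of the sum in WKY and from 8.65% (SHR 3) to 58.7% (SHR 60) in SHR, a share of 42.9% ± 8.89 against 27.2% ± 18.5 (SD, n = 6, exact permutation p = 0.0931, adjusted 0.233). SHR 60 was the highest of the 12 and without it the share differed between the strains (SHR minus WKY -22.0 percentage points, adjusted exact permutation p = 0.0162). The sum of all values was 29463 ± 9840 in SHR and 36834 ± 7800 in WKY (exact permutation p = 0.177, adjusted 0.296), and it also differed without SHR 60 (SHR minus WKY -11081, adjusted p = 0.0325 by the same exact permutation test). With ENSRNOT00000040993 left out in place of a library, the sums differed by -656.6 (adjusted exact permutation p = 0.779). The mean log2(value + 1), on which single abundant transcripts weigh little, was 1.24 ± 0.03 in SHR and 1.21 ± 0.05 in WKY (exact permutation p = 0.312, adjusted 0.390).

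**Figure D2:**
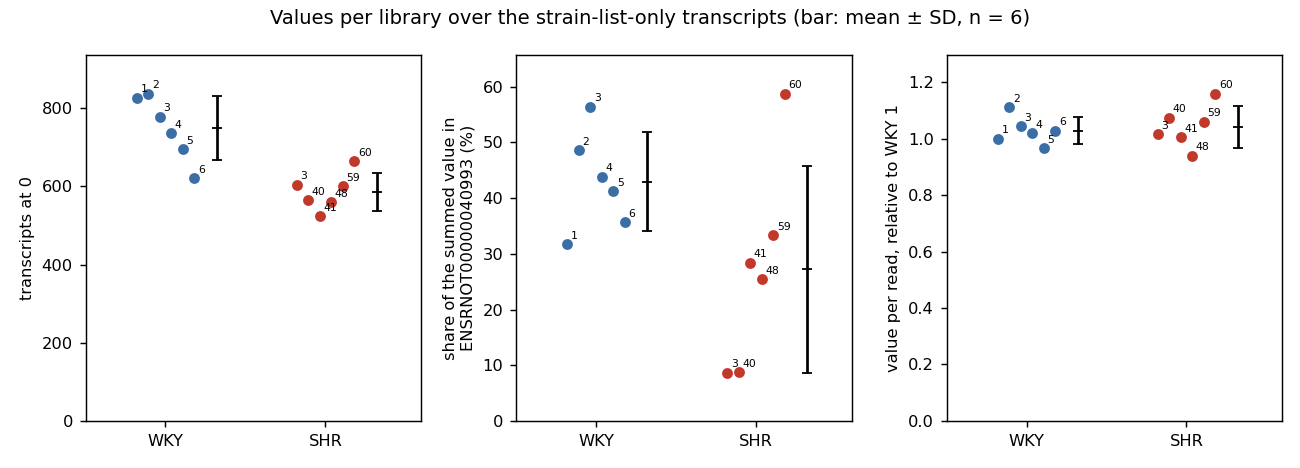
For each of the 6 WKY and 6 SHR libraries (points, numbered as labelled), the number of strain-list-only transcripts at 0, the share of the summed value in ENSRNOT00000040993 in percent, and the value that 1 read adds relative to WKY 1, with the mean and SD of each strain. The number at 0 is lower in SHR (524 to 664) than in WKY (621 to 837), the share spreads from 8.65% to 58.7% in SHR, and the value per read overlaps between the strains.

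Of the 3239 transcripts, 1383 (42.7%) reached a value of 1 or more in 6 or more of the 12 libraries and were tested, 512 of the 843 Ensembl transcripts (60.7%) and 871 of the 2396 assembled ones (36.4%). The filter can be passed by 1 strain alone: 65 tested transcripts reached 1 in all 6 SHR libraries and in no WKY library, and 78 the reverse. Such transcripts had to differ. The 285 transcripts that passed with exactly 6 libraries had a median mean value of 1.5, and the 252 that missed it with 5 libraries one of 1.05.

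Among the tested transcripts 1161 differed between the strains at an adjusted p under 0.05 (limma with an intensity trend on log2(value + 1), Benjamini-Hochberg over all 1585 tested transcripts listed for WKY and SHR), which is 83.9%, against a background of 82.5% over those 1585. In SHR 601 were higher, with a median log2 difference of 1.14 (interquartile range 0.92 to 1.57), and 560 were lower, with a median of -1.18 (-1.71 to -0.89). Over all 1585 transcripts 44.4% were called higher and 38.1% lower. Of the 1383 tested transcripts 758 were called with an absolute log2 difference above 1, 187 above 2 and 68 above 3. Of all 1585 tested transcripts the same held for 857 (54.1%), 207 and 76. The values of the strains were fully apart in 360 tested transcripts (26.0%), 171 higher and 189 lower in SHR, against 24.3% over the 1585 (11.7% higher and 12.6% lower). Leaving aside transcripts that reached 1 in only 1 strain, 1018 of 1240 (82.1%) were called. None of these shares stands far from its background, of which the 1383 transcripts make up most. The 202 tested transcripts that were also listed for the treated group differed in 147 cases (72.8%), 103 of them higher in SHR and 44 lower, and 25 (12.4%) did not overlap. The difference from these was not tested.

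Both classes of transcripts took part. Of the Ensembl transcripts 435 of 512 (85.0%) were called, 245 higher in SHR with a median log2 difference of 1.07 and 190 lower with a median of -1.15. Of the assembled transcripts 726 of 871 (83.4%) were called, 356 higher with a median of 1.21 and 370 lower with a median of -1.20. The values of the strains did not overlap in 114 Ensembl (22.3%) and 246 assembled transcripts (28.2%). By level, 374 of 468 transcripts with a mean value under 2 were called (79.9%), 413 of 480 between 2 and 5 (86.0%), 181 of 215 between 5 and 10 (84.2%), 169 of 192 between 10 and 100 (88.0%) and 24 of 28 at 100 or above (85.7%). The median difference of called transcripts was larger at higher levels, from 0.88 under 2 to 1.52 between 10 and 100 for those higher in SHR and from -0.90 to -1.88 for those lower, and it was 1.21 and -1.71 at 100 or above. This is in part by construction, since log2(value + 1) compresses low values. Of the 856 transcripts listed at 0 in no library, 777 (90.8%) were called. Over all 1585 tested transcripts 82.5% were called and 24.3% did not overlap. The splits by class, level and values at 0 were made for the strain-list-only transcripts alone. Their shares thus have no background of the same class or level, and differences between them were not tested.

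**Figure D3:**
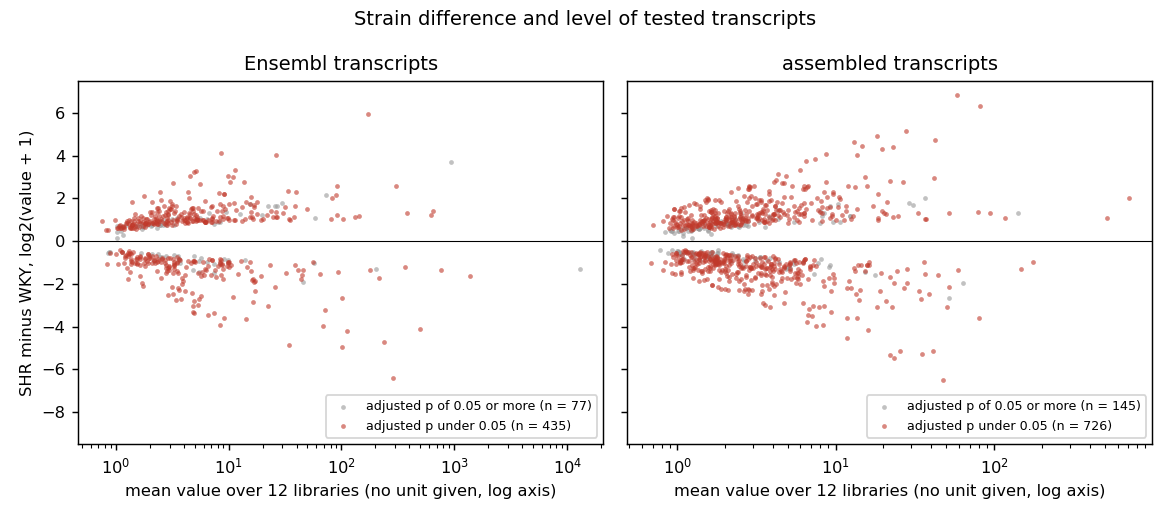
Difference of SHR from WKY on log2(value + 1) against the mean value over the 12 libraries (log axis) for 512 Ensembl and 871 assembled transcripts, coloured by the limma call. Called transcripts lie on both sides of 0 at all levels, and the space around 0 is empty at higher levels, as the list holds no transcripts with small strain differences.

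Among called transcripts whose strains did not overlap, the largest rise was that of MERGE.8077.3, an assembled transcript. It was listed at 0 in all 6 WKY libraries and had a lowest value of 89.9, a median of 115 and a highest value of 141 in SHR (117 ± 19.2, SD, n = 6, limma adjusted p = 8.4e-11). A fold cannot be given against 0. The SHR animals were close to each other, with SHR 41 the lowest and SHR 48 the highest. Of the Ensembl transcripts ENSRNOT00000023385 had the second largest rise, with values from 0 to 3.73 (median 2.24) in WKY and from 16.1 to 101 (median 44.9) in SHR. Every SHR animal was above every WKY animal, at a mean of 51.0 ± 29.0 against 2.09 ± 1.36 (log2 difference 4.04, SE 0.46, limma adjusted p = 7e-06), and SHR 60 was the highest.

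The largest fall among Ensembl transcripts was that of ENSRNOT00000052292. Its values ran from 180.3 to 1199 (median 487.8) in WKY and from 0.750 to 20.1 (median 3.36) in SHR, where SHR 59 was the highest and the other 5 were at 4.91 or below. The means were 561 ± 428 in WKY and 5.91 ± 7.06 in SHR (log2 difference -6.39, SE 0.64, limma adjusted p = 1.9e-06). Among assembled transcripts MERGE.19062.71 fell the most. It ran from 37.0 to 131 (median 103) in WKY, with WKY 5 the lowest, and was listed at 0 in all 6 SHR libraries (95.4 ± 33.5 in WKY, limma adjusted p = 2.78e-09).

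The other transcripts were chosen in the same way, for the size of their change among those without overlap. The 10 Ensembl transcripts with the largest rises had log2 differences from 2.57 to 4.15 and SHR means from 6.30 to 513, and 1 of them was listed at 0 in all WKY libraries. The 10 with the largest falls had log2 differences from -6.39 to -3.35 and WKY means from 12.7 to 935, and none was at 0 in all SHR libraries. The 5 assembled transcripts with the largest rises reached SHR means from 36.0 to 158 with 1 at 0 in all WKY libraries, and the 5 with the largest falls came from WKY means of 44.1 to 95.4 with 3 at 0 in all SHR libraries. Within WKY 2 of the assembled rises were uneven: the one ranked 2 was at 26.5 in WKY 4 and 0 in the other 5, and the one ranked 5 at 24.4 and 22.9 in WKY 1 and WKY 2 and 0 in the other 4. Limma adjusted p-values of these 30 transcripts ran from 8.4e-11 to 0.00135. A value of 0 in all libraries of 1 strain was listed for 1 of 20 of the Ensembl and 4 of 10 of the assembled transcripts chosen in this way. Choosing by the size of the change favours transcripts at 0 in 1 strain, and the classes were cut at different depths. These counts therefore do not compare the classes. Over all 3239 transcripts, 259 were at 0 in all WKY libraries and 152 in all SHR libraries, not split by class here.

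None of the 8 transcripts with the highest mean values separated the strains fully. ENSRNOT00000040993 ran from 9612 to 24636 (median 14021) in WKY and from 1812 to 28192 (median 7446) in SHR, and its difference missed the threshold (log2 difference -1.30, SE 0.58, limma adjusted p = 0.0501). It passed without SHR 60 (-1.74, limma adjusted p = 0.00953) and, by less, without WKY 1 (limma adjusted p = 0.050 after rounding), after median centring, with array weights and when the strain-list-only transcripts were fitted alone. Without SHR 3 or SHR 40 the difference was -0.95 or -0.97 (limma adjusted p = 0.109 for both), and after quantile normalization it vanished, as the transcript had the highest value in every library. ENSRNOT00000005872 was at 0 in WKY 3 and WKY 4, reached 2209 in WKY 1 (median 529), and stayed between 717 and 1551 (median 1327) in SHR, without a call (log2 difference 3.72, SE 1.76, limma adjusted p = 0.0606). It was called without WKY 1, WKY 2 or WKY 6 (limma adjusted p from 0.0309 to 0.0472) and with array weights. Without WKY 3 or WKY 4, the libraries at 0, its difference was 2.43 (limma adjusted p = 0.139 and 0.138). Of the other 6, those ranked 2 and 4 by mean value were lower in SHR (log2 differences -1.62 and -1.35), and those ranked 5 to 8 were higher (1.07 to 2.01), with limma adjusted p-values from 0.00518 to 0.0218.

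The transcripts that were not called had no differences near 0 at higher levels, which the bounded list fixes. The 4 with the smallest differences among uncalled transcripts with a mean of at least 10 had log2 differences of 0.89, -0.90, -1.03 and 1.1 (limma adjusted p from 0.0571 to 0.0780). In MERGE.4677.1 the WKY values spread from 2.19 to 16.2 and the SHR values from 9.94 to 22.3, with SHR 60 the highest. In ENSRNOT00000018918 the WKY values lay between 10.6 and 24.6, and 5 SHR values lay between 3.13 and 9.80, below all of WKY, while SHR 60 at 27.1 was above all of WKY. Without SHR 60 that transcript was called (log2 difference -1.22, limma adjusted p = 0.0110).

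Some called transcripts split a strain into high and low animals. The most variable called transcript was between 107 and 551 in all WKY libraries, at 402 and 512 in SHR 3 and SHR 60, and between 0.478 and 0.638 in the other 4 SHR libraries (log2 difference -4.74, SE 1.5, limma adjusted p = 0.0151). The next was between 68.8 and 139 in WKY, between 56.1 and 127 in SHR 3, SHR 40 and SHR 60, and between 0.259 and 0.293 in SHR 41, SHR 48 and SHR 59 (log2 difference -3.21, SE 1.18, adjusted p = 0.0265 by limma), and without SHR 41, SHR 48 or SHR 59 it was not called (limma adjusted p from 0.0572 to 0.0584). Another was between 27.2 and 111 in WKY, between 41.3 and 79.8 in SHR 3, SHR 40 and SHR 41, and at 0 in SHR 48, SHR 59 and SHR 60, and the call (limma adjusted p = 0.0277) was lost without any of these last 3 (limma adjusted p from 0.0597 to 0.0619). Only the 4 most variable called transcripts were examined in this way, and 1 of them was split in WKY instead. It was at 333 in WKY 1 and between 0.628 and 1.24 in the other 5, with SHR from 174 to 382 (log2 difference 5.95, SE 1.08, limma adjusted p = 5.62e-04). Uneven WKY values were also seen in the assembled transcripts ranked 2 and 5 by their rise. Over the tested strain-list-only transcripts the median SD of log2(value + 1) was 0.55 in WKY and 0.47 in SHR, and the SD was larger in WKY for 769 of 1383. Over all 1585 tested transcripts listed for WKY and SHR the medians were 0.58 and 0.47, and the SD was larger in WKY for 908.

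**Figure D4:**
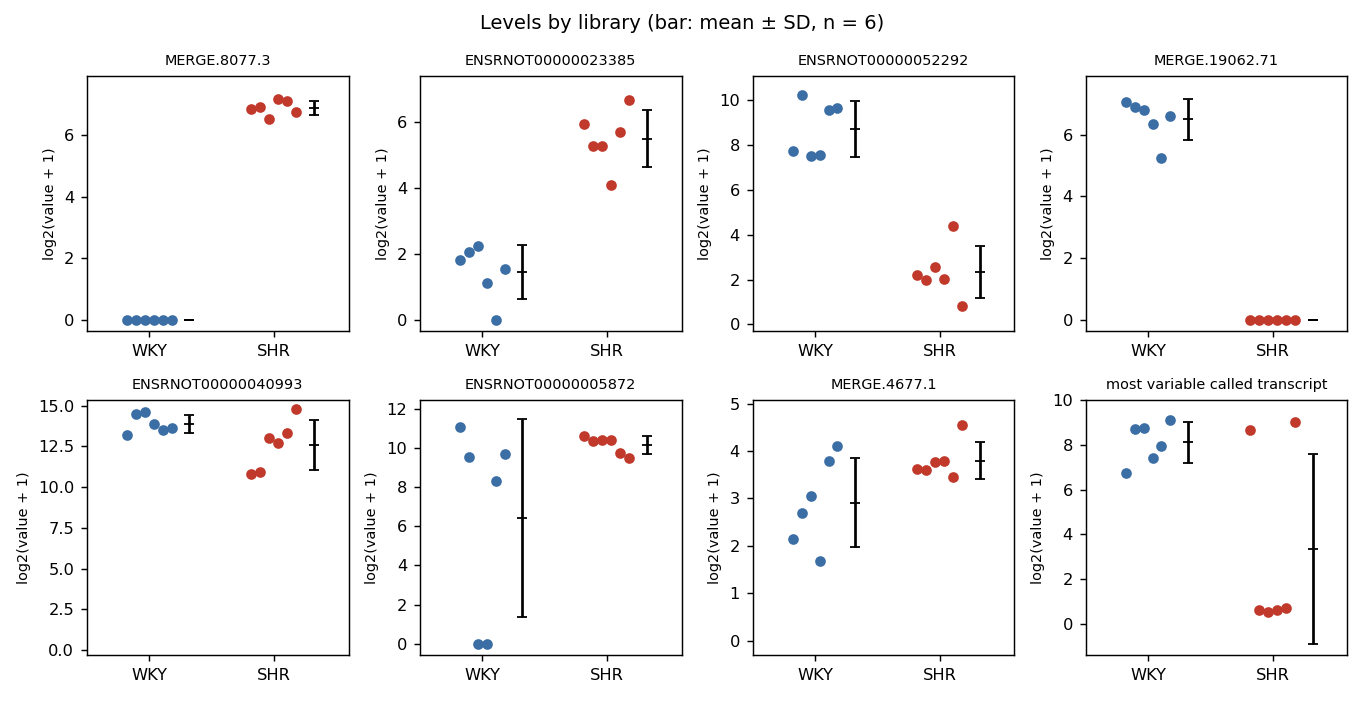
Levels of 8 transcripts on log2(value + 1) in the 6 WKY (blue) and 6 SHR (red) libraries, each with the mean and SD of its strain. The strains do not overlap in the upper row, they overlap in the first 3 panels of the lower row, and in the last panel SHR splits into 2 high animals and 4 at or below 0.638.

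Assembled transcripts that share the first number of their identifier were taken as transcripts of 1 locus, the usual form of such names, which the sources used here do not state. The 2396 assembled transcripts came from 1947 loci, and 279 loci held 2 or more of them. In 67 loci at least 2 transcripts were tested, 171 in all, and 162 of these (94.7%) were called, against 82.5% over all 1585 tested transcripts, a difference that was not tested. In 25 of the 67 loci (37.3%) transcripts of the same locus were called in opposite directions, in 18 every call was higher in SHR and in 24 every call was lower. Since each listed transcript differed between the strains, these counts are a description. No share expected for unrelated transcripts was computed, so they do not show whether transcripts of a locus agreed less or more than others. Transcripts of a locus usually share sequence, and no source used here states how reads were divided among them, so a change in which transcript was made cannot be told apart from a different division of shared reads.

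Transcripts within loci were compared in pairs. In each of the 67 loci the pair was the 2 tested strain-list-only transcripts with the highest mean values over the 12 libraries. Other transcripts of a locus were left out, so the pair need not be its 2 most abundant. Locus sums below likewise cover only strain-list-only transcripts. The log2 ratio of a pair, here its difference in log2(value + 1) per library, was compared between the strains. At low values it is smaller in size than the log2 ratio of the values themselves, which cannot be formed at 0. The ratio differed in 35 of the 67 loci (52.2%, limma with Benjamini-Hochberg adjustment over 67 loci), and 37 had an unadjusted p under 0.05. All 67 loci were formed from strain-list-only transcripts, so this share has no background from other loci. In 22 of the 35 the pair was called in opposite directions, in 10 both moved in the same direction by different amounts, and in 3 only 1 was called. The median absolute difference of the ratio in the 35 was 3.06 on the log2 scale (0.54 to 7.49). In 28 of the 35 the mean ratio was above 0 in one strain and below 0 in the other, so that the other transcript of the pair had the higher deposited value. In 2 others both transcripts were listed at 0 in all SHR libraries, where the ratio says nothing. Whether values are scaled by transcript length is not given, so this is not an order of molecule numbers, and since each listed transcript differed between the strains, these counts are a description too.

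The smallest p-value was that of locus MERGE.11932. In each locus the first transcript is the one with the higher mean over all 12 libraries. At MERGE.11932 the first had a lowest value of 3.71, a median of 4.76 and a highest value of 6.70 in WKY against 0.281, 0.388 and 0.739 in SHR. The second did the reverse, with values from 0 to 0.504 (median 0.0768) in WKY and from 2.56 to 5.74 (median 3.05) in SHR. Neither transcript overlapped between the strains. The log2 ratio, formed on value + 1, went from 2.33 ± 0.21 in WKY to -1.63 ± 0.19 in SHR (SD, n = 6, difference -3.96, SE 0.16, limma adjusted p = 1.05e-09). The listed values of the locus summed to 4.98 ± 1.20 in WKY and 3.92 ± 1.34 in SHR, a difference smaller than the SD of either strain.

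Locus MERGE.2099 showed the same form over 5 transcripts, of which 3 were lower in SHR (log2 differences -3.17 to -1.45) and 2 higher (1.89 and 2.57, limma adjusted p at most 0.00282). The first of its pair ran from 7.29 to 19.6 in WKY and from 0 to 1.02 in SHR, and the second from 0.364 to 1.53 in WKY and from 4.82 to 13.3 in SHR. The log2 ratio changed by -5.74 (SE 0.33, limma adjusted p = 1.55e-08), and the listed values summed to 23.9 ± 6.63 in WKY and 15.6 ± 5.20 in SHR (SD, n = 6).

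At other loci 1 transcript of the pair was listed at 0 in all SHR libraries. At MERGE.28313 the second ran from 2.10 to 5.45 in WKY and was listed at 0 in all 6 SHR libraries, while the first went from a median of 0.885 in WKY to 3.37 in SHR (log2 difference 0.97, SE 0.26, limma adjusted p = 0.00679). At MERGE.13370 the second ran from 5.12 to 10.7 in WKY and was at 0 in all SHR libraries, while the first rose from 4.04 ± 2.49 to 17.4 ± 5.64 (SD, n = 6, log2 difference 1.99, SE 0.39, limma adjusted p = 9.7e-04). The listed values at MERGE.13370 summed to 11.7 ± 3.64 in WKY and 17.4 ± 5.64 in SHR.

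Of the 10 loci with the smallest p-values for the ratio, 3 had consecutive numbers, MERGE.16144, MERGE.16145 and MERGE.16146. The number before them, MERGE.16143, was tested too, and its ratio was not called (log2 ratio difference -0.19, SE 0.35, limma adjusted p = 0.745). At MERGE.16144 the first fell from 22.6 ± 7.67 in WKY to 0.936 ± 0.534 in SHR and the second rose from 0.0512 ± 0.0938 to 5.66 ± 2.16 (SD, n = 6, log2 ratio difference -6.20, SE 0.32, limma adjusted p = 8.02e-09). At MERGE.16146 the first ran from 9.56 to 21.0 in WKY and from 0.0817 to 0.604 in SHR, while the second was at 0 in 5 WKY libraries, at 0.224 in WKY 5, and from 1.53 to 2.75 in SHR. Its log2 ratio changed by -5.11 (SE 0.23, limma adjusted p = 2.49e-09). At these 2 loci the transcript lower in SHR carried most of the listed values, which summed to 22.6 ± 7.75 in WKY and 6.60 ± 2.13 in SHR at MERGE.16144 and to 13.8 ± 3.83 and 2.45 ± 0.496 at MERGE.16146.

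Between them MERGE.16145 was the locus with the most listed transcripts, 31, of which 14 were tested and all 14 were called, 7 higher in SHR (log2 differences 0.84 to 3.14) and 7 lower (-2.87 to -1.0), with limma adjusted p at most 0.0369. In 9 of the 14 the strains did not overlap. The first of its pair ran from 34.3 to 74.3 in WKY (median 56.7) and from 2.88 to 21.8 in SHR (median 10.8), and the second from 10.8 to 35.0 in WKY (median 17.6) and from 38.1 to 57.6 in SHR (median 45.7). The log2 ratio of the pair changed by -3.65 (SE 0.45, limma adjusted p = 2.76e-05). All 31 listed values summed to 172.1 ± 26.3 in WKY and 178.7 ± 28.7 in SHR (SD, n = 6), a difference smaller than the SD of either strain.

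Locus MERGE.19062 held 29 of the listed transcripts, of which 13 were tested, 5 called higher and 8 lower in SHR, and its listed values summed to 348.0 ± 114.8 in WKY and 92.9 ± 65.7 in SHR. At MERGE.16214 the second was at 0 in all WKY libraries and ran from 13.9 to 48.6 in SHR, while the first ran from 11.1 to 27.9 in WKY and was at 0 in 3 SHR libraries but at 116 in SHR 3. MERGE.7150, with 6 tested transcripts, had 5 called higher in SHR and 1 lower. The first of its pair fell from 45.5 ± 18.6 to 10.6 ± 4.57 (SD, n = 6, limma adjusted p = 0.00189), and the second split the WKY animals, at 0 in WKY 1, WKY 3 and WKY 4 and between 15.6 and 24.5 in the others.

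**Figure D5:**
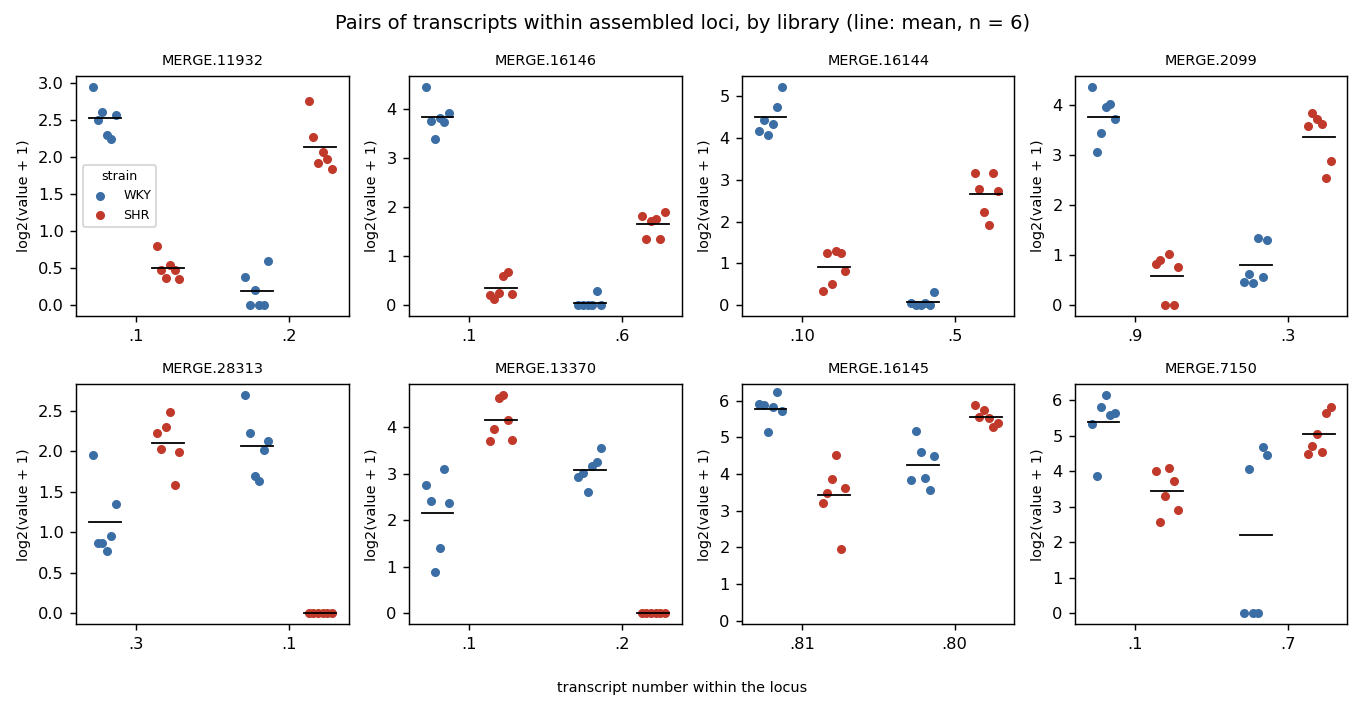
Levels on log2(value + 1) of the 2 tested strain-list-only transcripts with the highest mean value at 8 assembled loci, by library. WKY is blue and SHR red, with black lines at the means. Other transcripts of these loci are not drawn. At MERGE.11932, MERGE.16146, MERGE.16144 and MERGE.2099 the transcript at left is high in WKY and low in SHR and the one at right the reverse, and at MERGE.28313 and MERGE.13370 the one at right is at 0 in all SHR libraries.

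The 1856 transcripts below the filter were low, with a median mean value of 0.579 and a highest single value of 351. Without a filter, all 3659 transcripts listed for WKY and SHR were fitted and adjusted together. This called 1177 of the 1856 (63.4%), 635 with higher SHR levels and 542 with lower ones. That fit called 2278 of the 3239 strain-list-only transcripts (70.3%). A share over every transcript listed for WKY and SHR is not given for that fit. The list was bounded by the strain difference, so these counts are a description.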

How the data were processed

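The authors deposited 1 table per library with 1 signal value per transcript. Per the file headers each table has an identifier and 1 column named for the library, and no unit is named. Per the submitters' processing notes limma was used, without a version or a role. For the aligner, the quantification, the genome build, the assembly and any filter, nothing is given in the sources used here. Each table of the SHR+ETH group held 2024 rows without identifier, which were dropped.

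From the 12 WKY and SHR tables, the 1585 transcripts that reached 1 in 6 or more libraries were fitted together with limma 3.58.1 in R 4.3.3 on log2(value + 1), without terms other than group, eBayes with an intensity trend for transcripts and without it for loci, and Benjamini-Hochberg adjustment. Fold changes on this scale understate changes of low transcripts. All tests are two-sided. Replicates are numbered as in the labels. The fit was tested on simulated data: for SHR against WKY (1585 transcripts, 200 changed) 41.8%, 86.6% and all of the changes of 1, 2 and 3 on the log2 scale were recovered, with 8 false calls.

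The relative value of a read was found by comparing ratios of values with ratios of whole numbers up to 6, with a tolerance of 0.002 on the log2 scale. Loci had at least 2 tested strain-list-only transcripts, and pairs were chosen among these by the mean over all 12 libraries. Log2 ratios of pairs were differences of log2(value + 1). Transcripts described singly were the 10 Ensembl and 5 assembled ones with the largest change in each direction among called transcripts without overlap, the 8 most abundant, 4 uncalled ones with the smallest difference and a mean of at least 10, the 4 most variable called ones, the 6 loci with the smallest p and the 3 with most tested transcripts. MERGE.16214 was added after its values were seen. Lists of genes and cell types were prepared but could not be used without gene names. The transcripts and rules were chosen with earlier results of these data known. Alternatives were another pseudocount, other filters, scalings, variance models and weights, and leaving out each library. Exact tests used scipy 1.17.1 under Python 3.11.15, and tables pandas 2.3.3.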

Additional observations from a re-analysis of the deposited data

Results flagged for a closer look

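Dixon's gap criterion for 6 values was applied to 84 sets of strain values, and in 12 of them 1 library lay beyond it. Chance alone sets a library apart in about 1 in 20 such sets, and these values were skewed and partly 0. SHR 60 was the one in 5 of the 12. Its summed value was 48012, with the other SHR libraries between 20951 and 30577, ENSRNOT00000040993 stood at 28192 (others 1812 to 10186), the transcript ranked 4 by mean value at 927.9 (131.8 to 399.7), MERGE.4677.1 at 22.3 (9.94 to 12.9) and ENSRNOT00000018918 at 27.1 (3.13 to 9.80). A read was worth more in SHR 60 than in any other library, 1.16 times that in WKY 1, and its part in these values was not tested.

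The transcript ranked 5 by mean value was high in WKY 6 (1123, others 129.6 to 213.9) and low in SHR 3 (339.4, others 1038 to 1365). ENSRNOT00000052292 stood at 20.1 in SHR 59, with the others between 0.750 and 4.91. The assembled transcript ranked 2 by its rise was at 26.5 in WKY 4 and at 0 in the other 5 WKY libraries. The called transcript ranked 4 by variability was at 332.8 in WKY 1 and from 0.628 to 1.24 in the other 5. At low levels, the second transcript of MERGE.16146 was at 0.224 in WKY 5 and at 0 in the others, and the second of MERGE.16144 at 0.240 in WKY 6 (others 0 to 0.0340).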

How the results depend on the processing

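The count of 1161 called transcripts was 1129 with a pseudocount of 0.1, 1145 after quantile normalization, 1161 after median centring (1119 of them called in both), 1180 when only the strain-list-only transcripts were fitted, 1138 without the intensity trend and 1159 with array weights. Without the filter on low values all 3239 were tested and 2278 called (1210 higher, 1068 lower), and with at least 5 in 6 libraries 416 were tested and 344 called (177 higher, 167 lower), because the number tested changed. Leaving out 1 library gave 980 to 1085 calls, 514 to 590 higher and 457 to 508 lower. The scaling set which direction had more calls: quantile normalization gave 542 higher and 603 lower, with a median shift of -0.08, and median centring 559 and 602. No transcript called in the main analysis changed its direction under any of these alternatives. The locus ratio was called in 31 loci with a pseudocount of 0.1, in 9 of 13 with the stricter filter and in 30 to 34 without 1 library. Of the values per library, leaving out 1 library gave a difference (SHR minus WKY) of -189.0 to -145.8 transcripts at 0 (adjusted exact permutation p at most 0.0433), -16.2 to 19.0 at 1 or above, where the sign thus depends on single libraries, -11081 to -5078 in the sum, 0.01 to 0.04 in the mean log2(value + 1) and -22.0 to -12.0 percentage points in the share of ENSRNOT00000040993. Sum and share passed the threshold only without SHR 60. No paired analysis was possible because WKY and SHR share only 1 replicate number and it belongs to different animals. Of 1054 values of single transcripts and loci under alternatives, 1026 kept their direction and call, 12 lost the call, 16 gained it and 0 changed direction, though ENSRNOT00000040993 had none after quantile normalization; 6 of the 12 were the ratio at MERGE.19062, where both transcripts are at 0 in SHR. Reads per transcript are unknown, so precision at low values cannot be stated.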
